A study of Mus musculus with 50 samples.

Results

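Ern1, Eif2ak3 and Huwe1 were examined for every variant called in exomes of IL6Myc mouse tumours, with 6 variants in these 3 genes among 25624 analysed on the mm10 build. The rows were chosen by gene name, whatever their effect, and only rows with 1 alternate allele were used. None of the 199 rows with several alternate alleles lay in these genes. The genes themselves were picked with results of these data known, so their counts are described and not tested.

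The tumours were mesenteric lymph nodes of IL6Myc transgenic mice, named for interleukin 6 and Myc, and are labelled as malignant plasma cells. The series presents these mice as a model of multiple myeloma, a cancer of plasma cells. All tumours share the IL6Myc genotype, and each came from its own mouse. Neither the promoters that drive the transgenes nor the ages of the mice are stated in the sources used. The study labels 45 tumours and 5 kidneys of wild-type Balb/c mice. Calls of 44 tumours were used. No variant calls of tumour 4 or of the kidneys were available here, so they were not analysed. Genomic DNA holds no expression, so the labelled cell type could not be set against its markers. Each tumour had 1898 to 5929 calls (median 3225.5), and read depth is unknown, so single read shares carry no interval.

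IRE1, the product of Ern1, and PERK, the product of Eif2ak3, are kinases of the endoplasmic reticulum membrane. Their luminal parts sense unfolded protein. IRE1 then splices the Xbp1 message through its cytosolic RNase, and PERK slows translation by phosphorylating eIF2alpha. Plasma cells depend on the IRE1 to XBP1 branch to secrete antibody. HUWE1 is a very large ubiquitin ligase of the HECT family, encoded on the X chromosome, whose known substrates include MYC, MCL1 and p53.

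The variant found in more than 1 tumour was a deletion in Ern1, shown here because it was the sole shared allele of the 6. It removed 9 coding bases at chr11:106410036-106410044 (mm10), within a coding exon of transcript NM_023913. Ern1 is read from the minus strand and the letters below are those of the plus strand as deposited, with the deleted bases in capitals.

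Reference allele: aGGAACTCAG

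Allele in tumours 42 and 43: a

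On the coding strand the deleted bases are CTGAGTTCC. The change is written c.1523_1531delCTGAGTTCC and p.Pro508_Phe510del. It starts at the second base of codon 508 and ends at the first base of codon 511, so the reading frame is kept and 3 residues, from Pro508 to Phe510, are lost. As background, this stretch of IRE1 lies in the cytosol, in the linker between the membrane span and the kinase domain, outside both the kinase and the RNase. No protein sequence was used here, so residue numbers are those of the deposited annotation.

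The Ern1 deletion had a read share, the percent of reads at the site with the alternate allele, of 60% in tumour 42 and 41.2% in tumour 43. No other tumour had a call there, so it was carried by 2 of 44 (4.55%, exact Clopper-Pearson 95% interval 0.555 to 15.5%). In the same tumours the median read share of private single-base variants (SNVs), those called in 1 tumour alone, was 15% and 21.1%. The median of shared autosomal SNVs was 46.9% and 47.1%. In both carriers the deletion thus lay above the median of private SNVs. Of 149 private SNVs in tumour 42, 5 had a higher share, and of 145 in tumour 43, 18 had one. The share in tumour 42 was above the upper quartile of its shared SNVs, 53.9%, and that in tumour 43 was within their quartiles, 38.8 to 54.2%.

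Tumours 42 and 43, with the consecutive titles 1625 and 1626, had 2013 and 1984 calls, near the low end of the tumours. They shared 1390 calls, 0.533 of their union, against a median of 0.324 over 946 pairs of tumours. Such a share also depends on the number of calls, for which the pairs were not matched. A higher value was found for 39 pairs. Variants called in exactly these 2 tumours numbered 7, and the Ern1 deletion was the only one of them that alters a protein. Over all pairs the median of such exclusive variants was 1 and the highest 667, and 29 pairs had at least 7. The other exclusive variants of tumours 42 and 43 were 2 in introns of Klhl12, 1 upstream of Crp, 1 in an intron of Synpr and 2 between genes. One of the Klhl12 variants, a deletion of 1 base, had 45.8% of reads in tumour 42 and 47.5% in tumour 43, and the other had 28% and 39.1%. The Crp variant had 53.9% and 72.7%, and the Synpr variant 28.6% and 20%. The intergenic variants had 17.7% and 15.8% on chromosome 9 and 30.8% and 50% on the X chromosome. In tumour 42 all of these shares were thus below the 60% of the deletion. In tumour 43 they ran both below and above its 41.2%. No other variant on chromosome 11 called in both tumours lay nearer to the deletion than about 12 Mb, and that one, in Cacna1g, was called in 32 tumours. Within 1 Mb on either side 8 other variants were called, all private and none in tumour 42 or 43.

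Among all variants of the table, 68 were in-frame deletions, of which 3 removed 9 bases. Private ones numbered 33 and had a median read share of 10.7%, with a range of 1.27 to 72.4%. A further 15 were called in exactly 2 tumours, at a median of 48.7% over a range of 6.96 to 100%. The Ern1 deletion is 1 of those 15.

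The other Ern1 variant was c.215+234A>C, 234 bases into an intron at chr11:106436856. It was private to tumour 45, at a read share of 45.5%. Private SNVs of that tumour had a median of 12.3%, and 16 of 172 others had a higher share. The variant lay 26.8 kb from the deletion, in another tumour. With both variants Ern1 was hit in 3 of 44 tumours (6.82%, exact 95% interval 1.43 to 18.7%).

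Eif2ak3 carried 2 private variants, 40 bases apart at the 5′ end of the coding sequence and in different tumours. The missense change p.Ala56Thr (c.166G>A, chr6:70844891, transcript NM_010121) was called in tumour 13 at 45.0% of reads. The silent change at Thr42 (c.126A>G, chr6:70844851) was called in tumour 2 at 27.3%. The coding distance equals the genomic one, so both lie in 1 exon, 367 and 407 bases from the start of the RefSeq gene. As background, this is the N-terminal, luminal side of PERK, shortly after the signal peptide and far from the cytosolic kinase domain. No call was listed in the rest of the gene, whose coverage is unknown.

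The 2 Eif2ak3 variants differed in how they sat in their tumours. In tumour 13, p.Ala56Thr was above all but 25 of 311 other private SNVs, whose median was 14.04%. It was slightly under that tumour's median for shared autosomal SNVs, 48.2%. In tumour 2 the silent variant was below 1200 of 1429 other private SNVs, whose median was 45.5%. Tumour 2 had 1703 private calls and tumour 13 had 361. Eif2ak3 was thus altered in protein in 1 of 44 tumours (2.27%, exact 95% interval 0.0575 to 12.02%).

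Eif2ak3 neighbours the antibody kappa light chain locus Igk, where B cells mutate their own DNA during antibody maturation. On GRCm38.p6, the assembly that mm10 names, Igk ends 118 kb before Eif2ak3 starts. The locus held 186 variants, 182 of them private, and 76 of the private ones lay in the 4.19 kb from the first J segment to the end of the constant region. Beyond Igk the calls thinned out. Between the locus and Eif2ak3 lay 2 variants, 1 only 18 bases past the annotated end and 1 in an intron of Rpia, both private. Eif2ak3 then held its 2, and over the same length after the gene there were 0. Tumour 2 carried 4 private variants of the J to constant stretch, with read shares from 14.5 to 69.8%, and tumour 13 carried 0. Over 44 tumours the number ran from 0 to 5, with a median of 1. Any part of the locus in the Eif2ak3 calls was not tested, and exon capture also shapes where calls can fall.

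**Figure D1:**
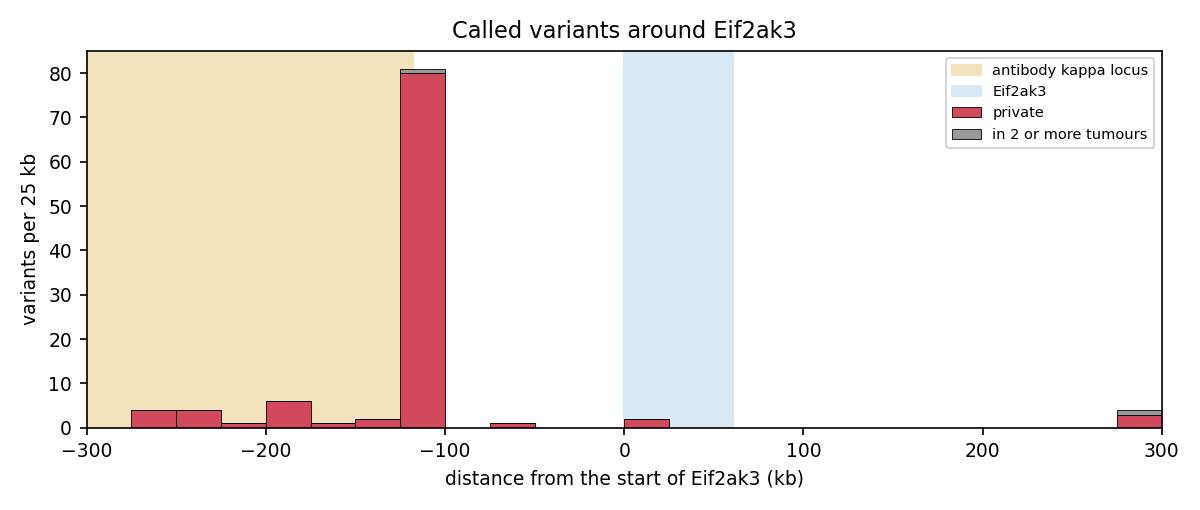
Called variants per 25 kb (vertical axis) against distance from the start of Eif2ak3 in kb (horizontal axis), private variants in red and variants in 2 or more tumours in grey, over all 44 tumours. The tall bar at the end of the kappa locus holds 80 private variants, while the bin at the start of Eif2ak3 holds 2.

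Huwe1 carried 2 private missense variants and no silent or intronic one. Tumour 11 carried p.Thr1663Ala (c.4987A>G, chrX:151890892, transcript NM_021523) at 43.9% of reads. Tumour 5 carried p.Arg3782His (c.11345G>A, chrX:151923566) at 43.2%. The read shares of both were close, although they came from different mice and lay 32.7 kb apart. Huwe1 was thus altered in 2 of 44 tumours (4.55%, exact 95% interval 0.555 to 15.5%).

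As background, Thr1663 lies in the WWE domain of HUWE1, a fold that in other proteins binds poly-ADP-ribose. Arg3782 lies towards the C-terminal end, ahead of the catalytic HECT domain. Neither variant therefore falls in the catalytic domain. The change of an arginine into a histidine by G>A at the second codon base requires, by the standard code, a CGC or CGT reference codon, and so places it at a CG dinucleotide.

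The carriers of Huwe1 variants differed in their private calls. In tumour 11, 159 of 481 other private SNVs had a higher read share than p.Thr1663Ala, and their median was 23.3%. In tumour 5, 395 of 746 were higher than p.Arg3782His, and their median was 44.4%. Among protein-altering private variants alone, 7 of 52 others were higher in tumour 11 and 33 of 79 in tumour 5. The Huwe1 variant thus lay within the quartiles of private SNVs in both tumours, above their median in tumour 11 and just under it in tumour 5.

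On the X chromosome, where cells of a male have 1 copy, both Huwe1 variants had shares well short of 100%. The labels give no sex. Of 434 variants on that chromosome, 364 were private, with a median share of 15.4%. The 65 private protein-altering ones had a median of 10%, and 8 of them, both in Huwe1 included, had at least 43.2%. In tumour 11 the other 26 private X variants had a median of 13.4%, with 4 above Huwe1. In tumour 5 the other 23 had a median of 18.2%, with 7 above.

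**Figure D2:**
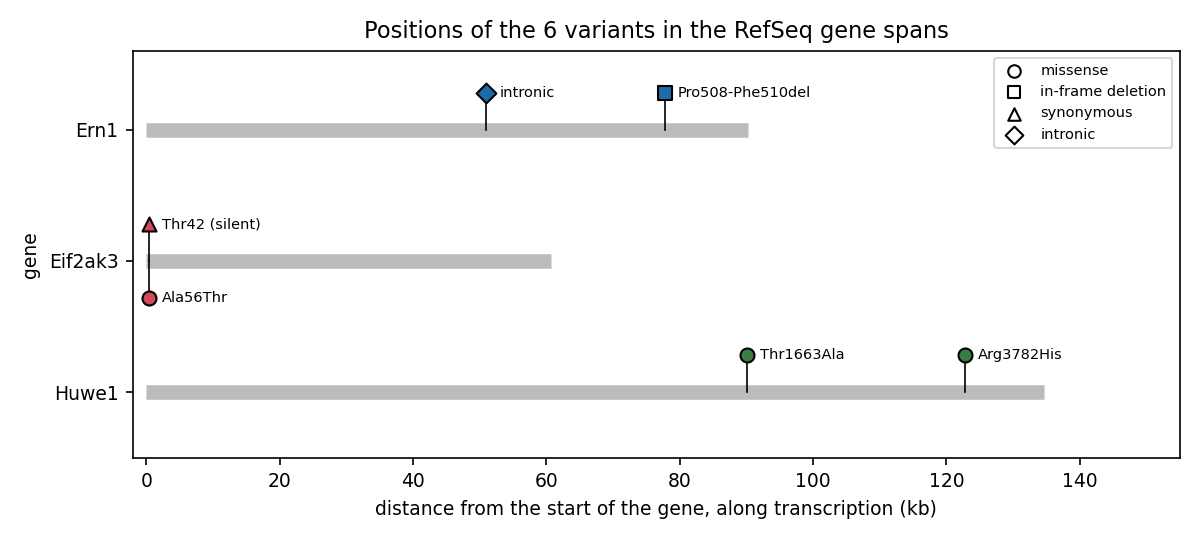
Positions of the 6 variants along the RefSeq spans of Ern1, Eif2ak3 and Huwe1, as distance in kb from the start of each gene along transcription; marker shape gives the effect. Both Eif2ak3 variants lie within 1 kb of the gene start, while the others lie from 50.9 to 123 kb along their genes.

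Across the 3 genes, 5 of 6 variants were private and 4 altered the protein. Any variant was called in 7 of 44 tumours (15.9%, exact 95% interval 6.64 to 30.1%), and a protein-altering one in 5 (11.4%, 3.79 to 24.6%). No tumour carried more than 1 of the 6. Read shares ran from 27.3 to 60% with a median of 43.9% (SD 9.55 percentage points over 7 calls), and the silent Eif2ak3 variant was the lowest. In 5 of 7 calls the share was above the median of the carrier's private SNVs, the variant itself left out, and in 4 of 7 above their upper quartile. Both calls of the Ern1 deletion, which is neither private nor an SNV, are in the 5 and in the 4. The calls not above the median were those in tumours 2 and 5, which had 1703 and 912 private calls against 226 to 584 in the other carriers. In 5 of 7 calls the share lay within the quartiles of the carrier's shared autosomal SNVs. No variant calls of the kidneys were available here, so inherited and acquired variants cannot be told apart.

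**Figure D3:**
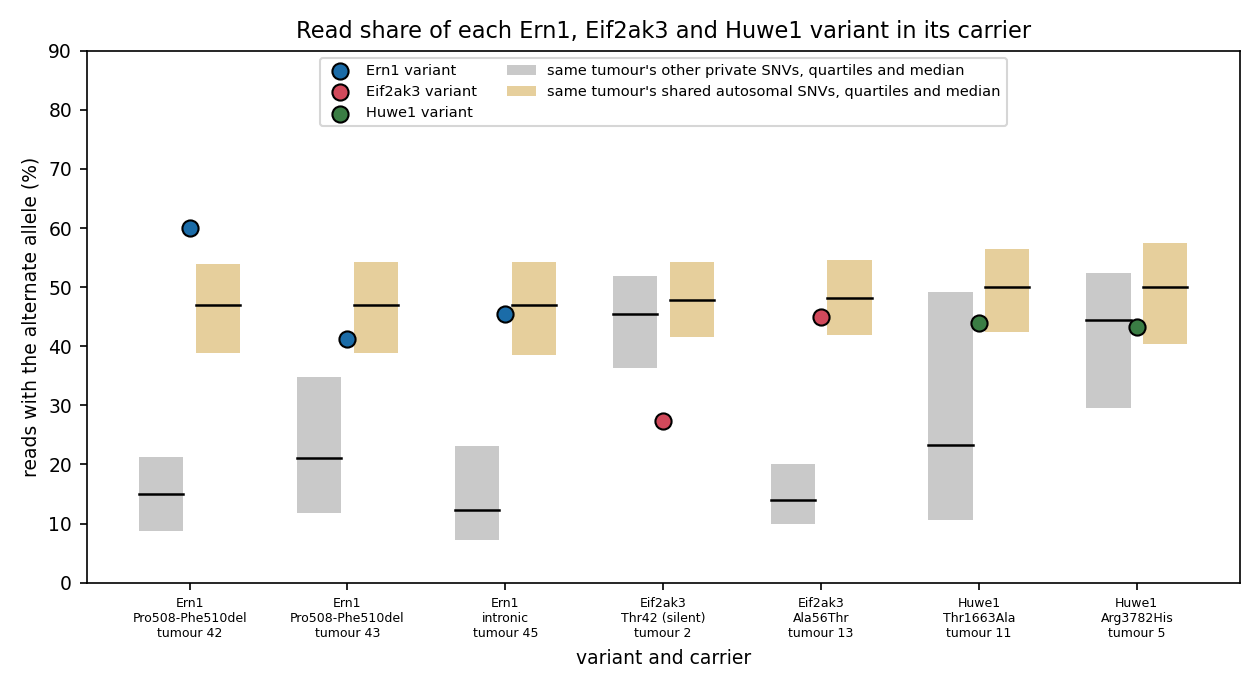
Read share in percent (vertical axis) of each variant in its carrier (points, coloured by gene). Beside it are the quartile range and median of the same tumour's private SNVs, the variant itself left out (grey), and of its shared autosomal SNVs (tan). The points of tumours 42, 43, 45 and 13 lie above the grey range, that of tumour 2, at 27.3%, lies below it, and those of tumours 11 and 5 lie within it.

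The 5 SNVs included 4 transitions, namely 2 of class C>T and 2 of class T>C when referred to the pyrimidine, and the Ern1 intronic variant was of class T>G. Among all 9903 private SNVs 54.4% were transitions. All 3 missense variants of these genes had at least 40% of reads, whereas 235 of all 1244 private missense variants did (18.9%), and their median was 10.7%. With so few variants neither figure sets these genes apart.

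Against the background of 21896 protein-coding genes, 29.7% had a variant of any effect, 7.77% a protein-altering variant in any tumour and 5.45% a private one. All 3 genes were among the first 2 of these classes, and Eif2ak3 and Huwe1 among the last, which follows from how they were picked. Like Huwe1, 0.658% of genes had at least 2 private protein-altering variants. Like Ern1 and Huwe1, 0.758% had protein-altering variants in exactly 2 tumours. Exactly 2 variants of any effect, the number in each of the 3 genes, were found in 5.41% of genes, and at least 2 in 13.4%. The genes are long. Huwe1 spans 134633 bases, more than 92.4% of protein-coding genes, Ern1 spans 90177 (87.4%) and Eif2ak3 spans 60758 (81.2%). Coding lengths were not used here.

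Of 18 core genes of the IRE1, PERK and ATF6 branches, 4 had a protein-altering variant (22.2%, against 7.77% of all genes), in 4 tumours. Ern1 and Eif2ak3 are 2 of the 4, by choice, and without them 2 of 16 were altered (12.5%). The other two were at low read shares. Atf6b, a relative of the sensor ATF6, had the stop p.Gln648Ter at 11.1% in tumour 42, which also carried the Ern1 deletion. Ppp1r15a, whose product GADD34 reverses eIF2alpha phosphorylation, had p.Leu419Ser at 4.69% in tumour 6. No protein-altering call was listed in Xbp1, Atf6, Atf4, Ddit3 or the chaperone gene Hspa5. A count of 0 in 44 tumours allows a share of up to 6.82% taking 3 counts as the limit, and up to 8.04% by the exact 95% interval. Of the 4 eIF2alpha kinases Eif2ak3 was altered, by choice (25%, against 7.77% of all genes), and without it 0 of 3 were altered.

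Among 30 genes of folding in the endoplasmic reticulum and of the disposal of misfolded protein, 4 were altered (13.3%, against 7.77% of all genes). Sec61b, a subunit of the translocation channel, had p.Ala83Ser in 8 tumours at 36.4 to 48.5% of reads. Its carriers were tumours 2, 6, 8, 9, 11, 13, 18 and 20, with none numbered above 20. The other variants were private. The disulfide isomerase gene Pdia3 had p.Arg20Cys at 47.8% in tumour 2 and p.Asn486Thr at 19.5% in tumour 14. The co-chaperone gene Dnajb9 had p.Leu77Arg at 42.3% in tumour 5, and the ligase gene Syvn1, which ubiquitinates misfolded protein, had p.Ala44Thr at 20.5% in tumour 10.

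Among the 25 HECT ligases reported here, Huwe1, by choice, and Nedd4 were altered (8%, against 7.77% of all genes), both by private missense variants. Without Huwe1, 1 of 24 was altered (4.17%), below the share of all genes. Nedd4 had p.Asn128His at 12.3% in tumour 18 and p.Ser249Pro at 15.7% in tumour 36. Of 34 proteasome genes, 2 were altered (5.88%), below the 7.77% of all genes. Psmd14, a deubiquitinase of the lid, had p.Gln269His in 6 tumours at 37.3 to 46.2%, and Psmb4 had p.Leu213Arg at 25% in tumour 43, which also carried the Ern1 deletion. Of 8 ligases and deubiquitinases known to act on MYC, Huwe1 not included, 3 were altered (37.5%, a small list beside 7.77% of all genes). All 3 are deubiquitinases, each altered in 1 tumour. They were Usp37 with p.Cys244Ser at 38.8% in tumour 5, Usp36 with p.Arg696Gln at 7.84% in tumour 7 and Usp28 with p.Ala453Val at 4.55% in tumour 44.

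Over these 6 lists together, 15 of 118 genes were altered (12.7%), by 18 variants of which 15 were private. Without the 3 picked genes 12 of 115 were altered (10.4%), against 7.77% of all genes, and the difference was not tested. The 12 private variants outside Ern1, Eif2ak3 and Huwe1 had read shares of 4.55 to 47.8% with a median of 17.6%. The 3 private missense variants of Eif2ak3 and Huwe1 had 43.2 to 45%, and of the 12 others the p.Arg20Cys variant of Pdia3 at 47.8% was higher. The shared variants of Sec61b and Psmd14 had medians of 42.9% and 41.9%, near those values and within the 41.2 to 60% of the Ern1 deletion. The lists were drawn up with earlier results known and overlap in Eif2ak3.

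**Figure D4:**
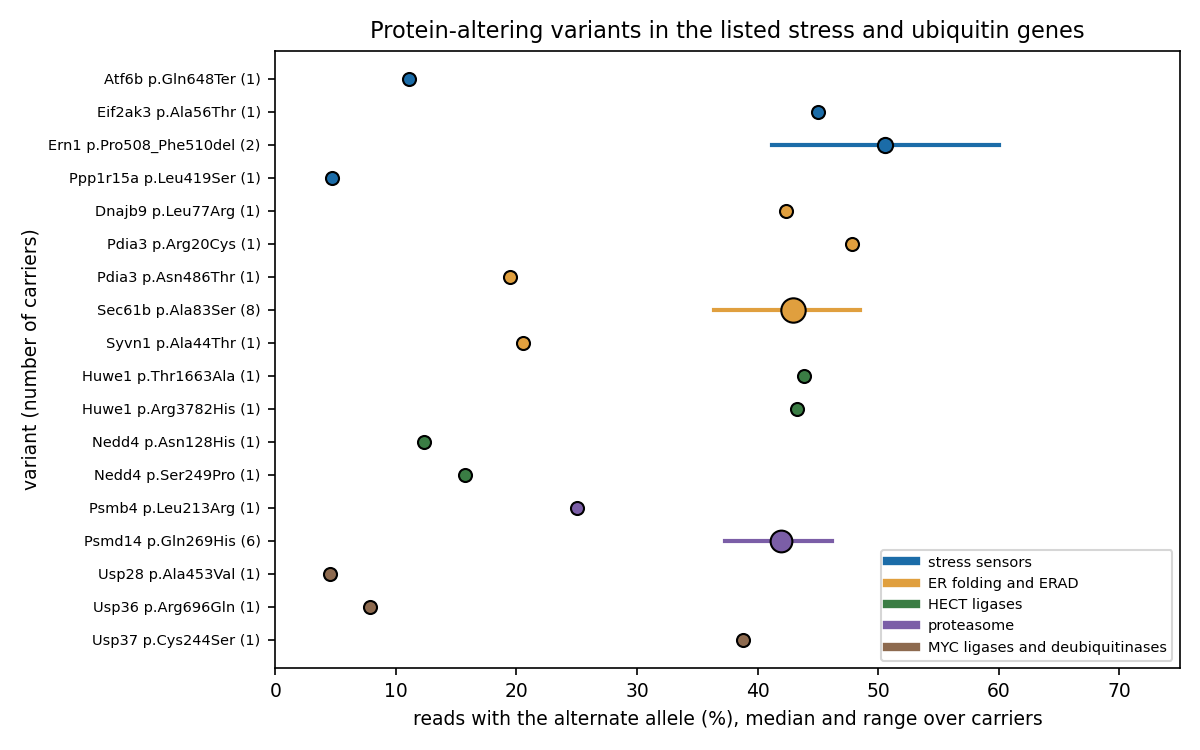
Read share in percent (horizontal axis) of each protein-altering variant in the listed genes, as a point at the median and a line over the range of its carriers; colours give the list and numbers in brackets the carriers. The variants of Ern1, Eif2ak3 and Huwe1 have medians of 43.2 to 50.6%, the shared Sec61b and Psmd14 variants 42.9% and 41.9%, and the 12 other private ones spread from 4.55 to 47.8%.

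Of 7 known HUWE1 substrates, Myc and Trp53 were altered (28.6%, a small list beside 7.77% of all genes). Trp53 had p.Tyr123Ser at 45.3% in tumour 3, and all other variants of the list were in Myc. Missense variants of Myc occurred in 22 of 44 tumours (50.0%) and in 4 of the 5 tumours with a protein-altering variant of the 3 genes. Both Huwe1 carriers had one, p.Glu116Asp at 25.8% in tumour 11 and p.Asn108Lys at 32.98% in tumour 5. Both shares were lower than those of Huwe1 in the same tumours. In tumour 42, p.Asp125Val of Myc had 12.1% of reads. In tumour 43, p.Leu121Ser had 24.4% and p.Ser188Ala 31.4%, below the 41.2% of the Ern1 deletion. The number of Myc copies in these IL6Myc transgenic mice is unknown, and Huwe1 is X-linked with no sex labelled. Read shares of Myc, Huwe1 and Ern1 therefore give no order in which the variants arose. Tumour 13, which carried p.Ala56Thr of Eif2ak3, had no protein-altering Myc call. With 5 carriers, the overlap with Myc was not tested.

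**Figure D5:**
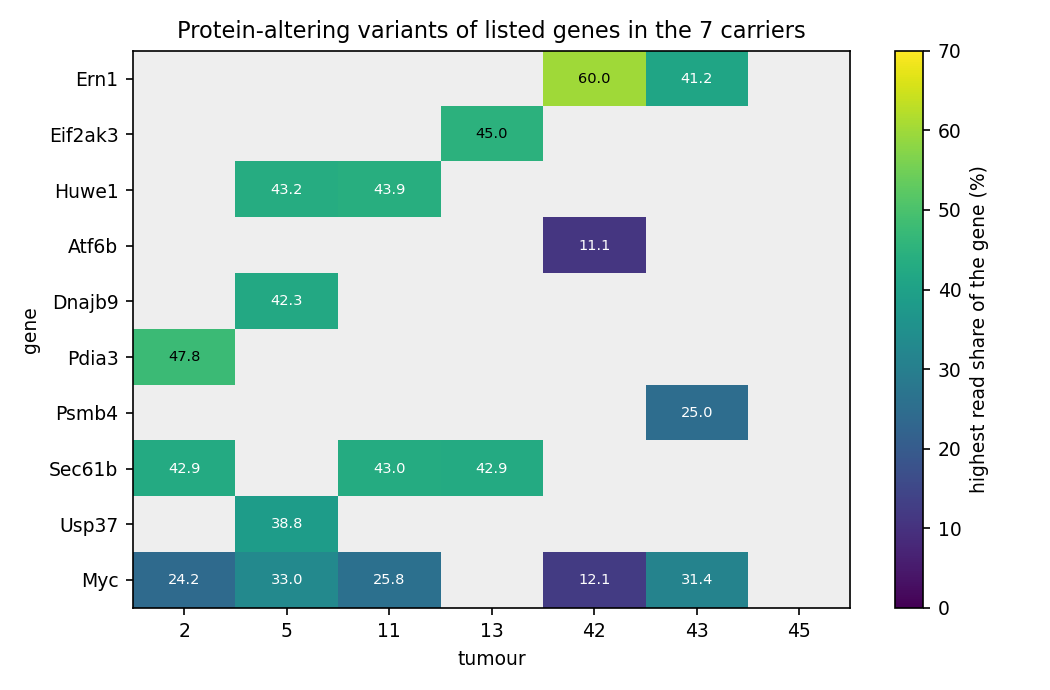
Highest read share in percent (colour and number) of the protein-altering variants of each listed gene (rows) in the 7 tumours with a variant in Ern1, Eif2ak3 or Huwe1 (columns); grey means no call. Tumour 5 held Huwe1, Dnajb9, Usp37 and Myc variants at 32.98 to 43.2%, and tumour 45 held none in the listed genes.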

How the data were processed

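Exomes were captured from genomic DNA with an Agilent SureSelect mouse design, per the labels' protocols, and variants were called with GATK on mm10, per the submitters' processing notes. No source used here names the aligner, the versions, the filters or the annotation tool. The authors deposited 1 annotated table of 25823 rows. Its tumour cells hold a percent, taken from their range to be the share of reads with the alternate allele. A deposited column gives the count of tumours with a call, and it equalled the filled cells in all 25624 rows analysed. The 199 rows with several alternate alleles were left out.

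Protein-altering variants were missense, stop, start-lost, frameshift, in-frame and essential splice site variants in the deposited annotation. Where genes share a row, the variant went to those with a written protein change. Symbols were matched to the RefSeq table of GRCm38.p6, including synonyms. Counts were made with pandas 2.3.3 and exact Clopper-Pearson intervals with scipy 1.17.1, which cover counting error only, and the counting was tested on simulated data. The genes and lists were chosen with earlier results of these data known. Named are the 3 genes and every listed gene with a protein-altering variant, except 1 item of the lists that is not reported here and is left out of their counts. The rule for variants with like carriers, which needs at least 3 carriers, named none. The planned check of residues and motifs against protein sequences was not run. Alternatives were minimum read shares of 10% and 20%, SNVs only, private variants only, no variants in over 22 tumours, rows with several alleles kept, tumours titled 1501 and above, and written residue changes only.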

Additional observations from a re-analysis of the deposited data

How the results depend on the processing

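Of 83 values of 12 results recomputed under 8 alternatives, 71 stayed within their limits and 12 did not. Many of the 71 could not have moved, so their number is no measure of robustness. The lowest read share of the 6 variants was 27.3%, above the minimum read shares of 10% and 20%. None of the 6 was called in more than 2 tumours, so leaving out widely shared variants removed none. No row with several alleles lay in Ern1, Eif2ak3 or Huwe1. Results on these genes were thus fixed in advance under these alternatives. With SNVs only, which leaves out the deletion by construction, Ern1 had 1 variant in 1 tumour and 0 protein-altering carriers, and 100% of the variants were private. With private variants only, Ern1 likewise had 1 carrier and 0 protein-altering carriers. In the 40 tumours titled 1501 and above, which leave out tumours 2 and 5, Eif2ak3 had 1 variant in 1 tumour, and Huwe1 had 1 variant in 1 tumour, which was protein-altering. A minimum read share of 20% left 882 of 1701 genes with a protein-altering variant in the background and removed none of the 6 variants. No paired analysis was possible because the tumours carry no replicate numbers shared with another analysed group. The number of tumours and the unknown read depth limit every count.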
